A study of Mus musculus with 6 samples.

Results

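The inflammasome and pyroptosis genes are 9 genes looked up by symbol in the table of RNA sequencing values, the sensors *Nlrp3*, *Nlrp12* and *Nlrp1b*, the kinase gene *Nek7*, the adaptor gene *Pycard*, the caspase genes *Casp1* and *Casp4*, the cytokine gene *Il18* and the membrane rupture gene *Ninj1*. All 9 were found among the 38739 genes of the table, and all 9 were among the 23049 genes with a value above 0 in at least 1 sample. The samples are neutrophils from the peritoneum of cGAS knockout mice, labelled as the C57B/L6 strain, which have lost cGAS, a sensor of DNA in the cytosol. The methods of the study give the animals as males of 8 weeks, with the cells washed from the peritoneum shortly after a thioglycolate injection, and name no sorting step. In 3 samples the cells were kept in medium for 2 h (untreated), and in 3 samples LPS, the lipopolysaccharide of Gram-negative bacteria, was added at 500 ng/mL for the same time (LPS). That dose is the one on the labels, while the methods of the study give a lower one. Both groups carry the deletion and no wild-type sample was analysed here, so every comparison is of LPS with medium in cells without cGAS. The labels do not say whether the samples of a group came from separate mice, and p values therefore measure the spread between these samples, which may be technical.

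An inflammasome is a protein platform that forms in the cytosol when a sensor such as NLRP3 detects infection or damage. The sensor recruits the adaptor ASC, the product of *Pycard*, which gathers and activates caspase-1, and caspase-1 then matures IL-1β and IL-18 and cleaves gasdermin D, whose pores cause the lytic death called pyroptosis. In mice, caspase-11, the product of *Casp4*, binds LPS in the cytosol directly and cleaves gasdermin D without a sensor of the NLRP family. In macrophages, LPS is known to act first as a priming signal that raises the transcripts of NLRP3 and of pro-IL-1β through NF-κB.

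Values are scaled TPM (the kallisto unit of transcript abundance, relative to the sum of a library, as the mean of the annotated transcripts of each gene after rescaling each sample), a relative unit that holds no record of read number, so the depth of the samples is unknown. Because the average depends on how many transcripts are annotated for a gene, a level or a place in a ranking is read here for 1 gene between the groups, and a difference in level between genes is not interpreted. A gene was called higher or lower with the limits of the study, an unadjusted p under 0.01 and a difference of more than 2 between the groups on the log2(scaled TPM + 1) scale, a scale that understates the change of low values. Of all genes tested, 1.69% were called higher and 1.31% lower. The 6 libraries had summed values of 603599 to 713384 when untreated and 404675 to 465904 after LPS, and protein-coding genes took 21.0 to 28.3% and 49.7 to 58.9% of these sums. Of 14 listed neutrophil markers, 13 were above 0 in every sample, though *Mpo* only at 0.0181 to 0.138 scaled TPM. *Elane*, a gene of immature neutrophils, was listed at 0 in all 6. *Retnlg* and *Trem1* were not analysed here. The summed level of the 14 was 9696 to 28382 in the untreated and 16056 to 54565 in the LPS samples. *S100a8* and *S100a9* made up most of that sum, *S100a8* with 2086 to 8405 and 5536 to 19851, and *S100a9* with 5233 to 16151 and 8899 to 28393. Among the 14, *Cxcr2*, a chemokine receptor gene, was called lower (39.4, 120 and 100.2 scaled TPM without and 7.10, 23.6 and 8.69 with LPS, log2 difference -2.67, adjusted p = 0.094). *Csf3r* and *S100a8*, which were not called, had differences of -0.97 and 1.11. *Lcn2*, *Mmp9* and *Ngp*, also not called, had differences of 3.02, -1.56 and -1.22. *Cgas*, the deleted gene, was listed at 0.180 to 0.307 scaled TPM in the untreated and at 0.0286 to 0.184 in the LPS samples, and since the deleted part of the gene is not stated, these values do not check the labels. Markers of other cells were also listed. The summed level of 10 macrophage markers was 1123 to 1546 in the untreated and 852 to 1135 in the LPS samples, with 1 of the 10, *C1qb*, called higher and 0 lower. *Lyz2*, which neutrophils also express, made up most of that sum with 872 to 1367 and 532 to 695. *Cd68* lay the other way, with 157 to 179 in the untreated and 230 to 381 in the LPS samples. So did the means of *C1qb* (2.77 without and 19.8 with LPS), *C1qc* (2.28 and 6.97) and *C1qa* (7.57 and 10.3), *C1qc* and *C1qa* with overlapping groups. The means of *Mrc1*, *Apoe* and *Icam2* were lower after LPS. *Timd4* and *Mertk* were at most 1.43 and 0.191. The sum therefore does not stand for the single markers. *Adgre1*, *Csf1r*, *Gata6* and *Vsig4* were not analysed here. The summed level of 6 B cell markers was 143 to 551 and 67.8 to 239. Their part in the results was not tested, and in bulk samples fewer cells of a type and less RNA per cell cannot be told apart.

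Of the 9 genes, 2 were called higher after LPS, *Nlrp3* and *Casp4*, and 0 were called lower (limma, with 5 higher and 0 lower at an unadjusted p under 0.05, and 2 and 0 called with voom). Over all 23049 genes, voom called 586 higher and 386 lower. The share of all genes at an unadjusted p under 0.05 was not computed. Counts at that limit, here and for the lists below, therefore have no background beside them. At an adjusted p under 0.05 with no fold limit, which 0.894% of all genes passed with higher and 0.946% with lower values, the counts of the 9 genes were also 2 and 0. *Nlrp3* no longer passed that limit when untreated replicate 3 or any single LPS sample was left out, *Casp4* when any single LPS sample was left out, and both failed it with the replicate block. The genes called higher are a sensor of the canonical pathway and the LPS-binding caspase of the non-canonical pathway. In the deposited values, the lowest LPS sample exceeded the highest untreated one for 5 of the 9 genes, where 13.1% of all genes tested did so. For 0 genes was the reverse found, where 9.75% did so. These shares cover genes of every type, while the 9 genes are all protein-coding. Protein-coding genes took a larger share of the summed values after LPS. The count of separate groups was not repeated with values scaled to the sum of protein-coding genes. Ranked within each sample from the highest among protein-coding genes, *Pycard* and *Nlrp1b* had overlapping groups. *Pycard* stood at place 1359 in untreated replicate 3 and at 1466 in LPS replicate 1. *Casp1* was only just apart, with place 1289 in untreated replicate 2 and 1239 in LPS replicate 2. The count of separate groups in the deposited values therefore depends on the scaling. The median difference of the 9 genes was 0.72 on the log2 scale, beside 0.01 for all genes tested and 0.13 for those with a mean of at least 1. With values scaled to the sum of protein-coding genes, the middle of the 9 differences, that of *Nek7*, was 0.38. The medians of the other groups of genes were then -0.04 and -0.22.

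**Figure D1:**
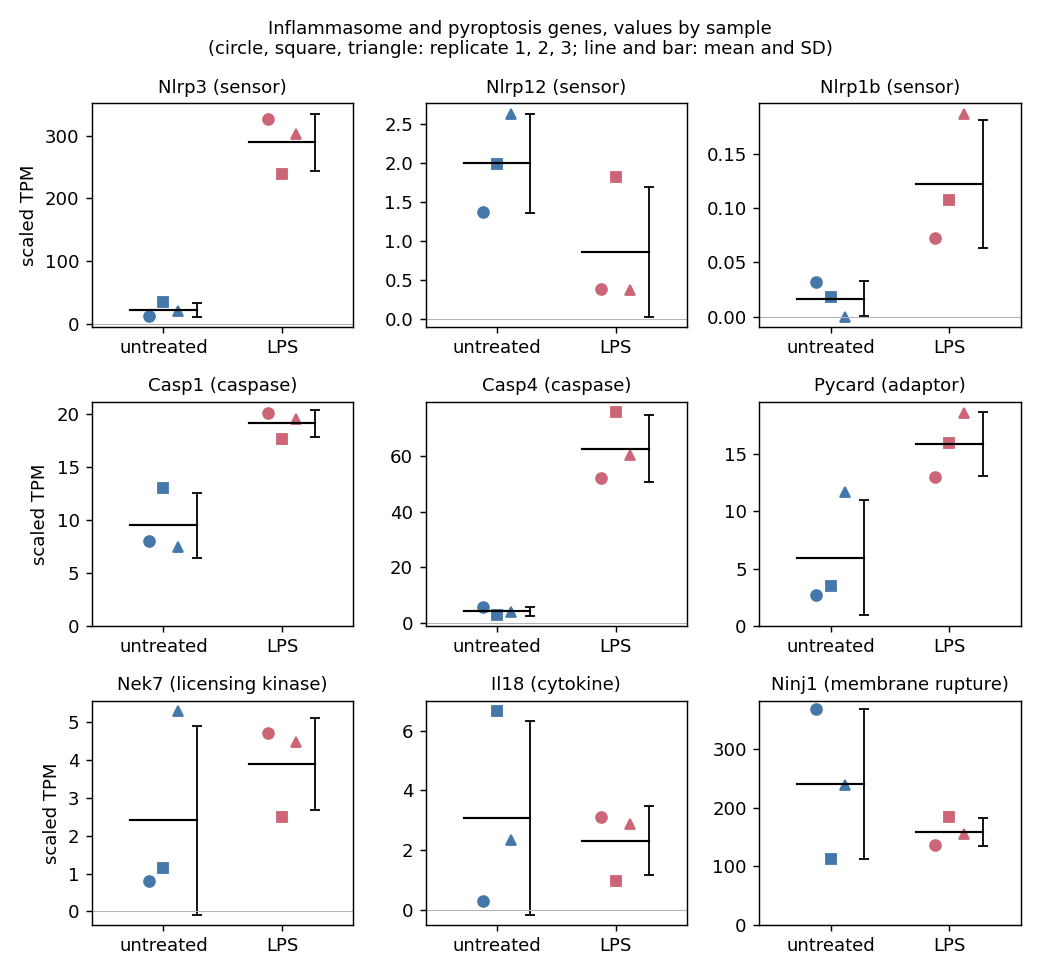
Values of the 9 genes in scaled TPM (vertical axis, linear, one scale per panel) in the 3 untreated and 3 LPS samples, with symbols for replicates 1 to 3, a line at the group mean and a bar of 1 SD. The groups are separate for Nlrp3, Casp4, Casp1, Pycard and Nlrp1b, the last with values of at most 0.187, and overlap for the other 4 genes.

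The promoters of the genes that were called are shown first, together with that of *Casp1*, the neighbour of *Casp4*, which was not called. The sequences run from 250 bases before to 50 bases after a transcription start, are taken from RefSeq (GRCm38.p6) and were located by exact match in GRCm39, the build the study names. Capitals mark matches to the κB consensus, the DNA motif bound by NF-κB, searched on both strands. The *Nlrp3* stretch lies at chr11:59432145-59432444 on the plus strand, the *Casp4* stretch at chr9:5308599-5308898 and the *Casp1* stretch at chr9:5298267-5298566, both on the plus strand.
Nlrp3: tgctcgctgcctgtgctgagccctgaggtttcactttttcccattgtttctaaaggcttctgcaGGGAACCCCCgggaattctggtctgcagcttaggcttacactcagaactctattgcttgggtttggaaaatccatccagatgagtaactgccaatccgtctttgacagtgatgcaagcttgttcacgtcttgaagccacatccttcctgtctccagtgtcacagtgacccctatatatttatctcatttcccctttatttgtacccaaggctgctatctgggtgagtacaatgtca
Casp4: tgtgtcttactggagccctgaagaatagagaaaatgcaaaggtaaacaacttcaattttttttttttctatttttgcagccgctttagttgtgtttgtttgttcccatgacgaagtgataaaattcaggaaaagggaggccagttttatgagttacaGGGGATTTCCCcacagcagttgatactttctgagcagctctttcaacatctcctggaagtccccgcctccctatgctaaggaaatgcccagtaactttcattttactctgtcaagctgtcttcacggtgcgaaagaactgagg
Casp1: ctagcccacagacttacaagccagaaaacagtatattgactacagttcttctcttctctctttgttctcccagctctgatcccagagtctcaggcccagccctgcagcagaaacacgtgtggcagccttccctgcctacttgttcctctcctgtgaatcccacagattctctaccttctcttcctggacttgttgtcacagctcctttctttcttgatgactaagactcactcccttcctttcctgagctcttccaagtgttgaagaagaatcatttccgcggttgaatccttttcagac

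The *Casp4* stretch holds 3 overlapping matches on both strands, the first of which begins at position -93 from the start. The *Nlrp3* stretch holds 1 match on the minus strand, at position -186, and a further RefSeq start of *Nlrp3* has 0 matches in its window. The *Casp1* stretch holds 0. In all, 12 promoters of the 9 genes were searched, since *Nlrp3*, *Nlrp1b* and *Casp4* have several starts, and 3 of the 12 held a match, which are the *Nlrp3* stretch and the overlapping stretches of the *Casp4* starts. Of 19409 promoters of 15868 genes in the table, 4.75% held one. The AP-1 site TGANTCA was in 0 of the 12 promoters and in 7.49% of all, and GAAANNGAA, part of the response element of interferon-stimulated genes, was in 0 of the 12 and in 8.18% of all. A match is a description of the letters in these windows and was not tied to binding.

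*Nlrp3* encodes the sensor that forms the best studied inflammasome, and lies on chromosome 11 (GRCm39, 59432394 to 59457782, plus strand). Its values were 12.4, 33.7 and 19.6 scaled TPM in untreated cells and 327, 238 and 303 in the LPS samples. The lowest LPS sample was several times the highest untreated one. The mean rose from 21.9 ± 10.8 to 289 ± 45.9 (SD, n = 3), a ratio of 13.2, with a log2 difference of 3.76 (standard error 0.42, 95% interval 2.74 to 4.78, adjusted p = 0.020, limma with Benjamini-Hochberg adjustment). Among the 14312 protein-coding genes of the table, ranked within each sample from the highest of these values, *Nlrp3* stood between place 619 and place 1328 in untreated cells and between 88 and 144 after LPS. The call held in all 6 fits that left out 1 sample, in which the adjusted p ran from 0.0174 to 0.154.

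Neither of the other sensor genes of the set was called. *Nlrp12*, on chromosome 7 (3267458 to 3298370, minus strand), encodes a sensor of the same family that is expressed in myeloid cells and is known as a restraint on NF-κB signalling. It was listed at 1.36, 1.98 and 2.63 scaled TPM without LPS and at 0.385, 1.81 and 0.367 with it. Replicates 1 and 3 of the LPS group lay below the untreated samples and replicate 2 lay among them. The log2 difference was -0.75 (standard error 0.42, 95% interval -1.77 to 0.26, adjusted p = 0.42). *Nlrp1b*, on chromosome 11 (71043928 to 71121559, minus strand), encodes another sensor of the NLRP family. Its values were 0.0318, 0.0182 and 0 in untreated cells and 0.0722, 0.107 and 0.187 after LPS. The groups did not overlap, but the gene was not called (log2 difference 0.14, standard error 0.05, adjusted p = 0.22), and the difference was -0.06 when the samples were centred on their medians.

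*Nek7* encodes a kinase that binds NLRP3 and is needed for its assembly, and lies on chromosome 1 (138410613 to 138550306, minus strand). It was listed at 0.806, 1.15 and 5.29 scaled TPM in untreated cells and at 4.72, 2.49 and 4.48 after LPS. The third untreated sample was above all LPS samples, and the other two were below them. The log2 difference was 0.72 with a standard error of 0.56 (95% interval -0.64 to 2.09, adjusted p = 0.55). It was 0.38 without untreated replicate 1 and 1.28 without untreated replicate 3 (adjusted p = 0.70 and 0.17), and 0.38 with values scaled to the sum of protein-coding genes.

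*Pycard*, the gene of the adaptor ASC on chromosome 7 (127588558 to 127593039, minus strand), showed the same untreated sample standing apart. Its values were 2.65, 3.46 and 11.7 scaled TPM without LPS and 13, 16.0 and 18.6 with it. All LPS samples were above all untreated ones, the third untreated sample only just below the lowest of them. With means of 5.94 ± 5.02 and 15.9 ± 2.79 (SD, n = 3), the log2 difference was 1.5 (standard error 0.53, 95% interval 0.20 to 2.80, adjusted p = 0.23), which did not reach the limits. With values scaled to the sum of protein-coding genes the difference was 1.05 (adjusted p = 0.44). Without untreated replicate 3 it was 2.05 and the gene was called (standard error 0.32, unadjusted p = 0.0013, adjusted p = 0.072). That library also had the highest summed level of 7 erythroid and platelet markers, 5637, of a range from 23.2 in the untreated group, and LPS replicate 3 had 4678. The part of these cells in the *Pycard* value was not tested. A transcript of *Gm45205* on the other strand is identical to 486 bases of *Pycard*, and that gene was listed at 0 to 1.03 scaled TPM.

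The caspase genes lie next to each other on chromosome 9, *Casp1* from 5298508 to 5307290 and *Casp4* from 5308828 to 5336783, both on the plus strand with 1537 bases between them. *Casp1* encodes the protease that inflammasomes activate. It was listed at 7.99, 13 and 7.46 scaled TPM in untreated cells and at 20.1, 17.6 and 19.5 after LPS. In the deposited values the groups were separate and the LPS samples were close to each other. The mean was 9.48 ± 3.04 without and 19.1 ± 1.29 with LPS (SD, n = 3), a ratio of 2.02, and the log2 difference of 0.98 was not called (standard error 0.32, 95% interval 0.21 to 1.74, adjusted p = 0.19). Scaled to the sum of protein-coding genes it was 0.51 (adjusted p = 0.48).

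*Casp4*, the gene of caspase-11, had values of 5.60, 2.66 and 3.92 scaled TPM in untreated cells and of 52.0, 75.7 and 60.4 in the LPS samples. No LPS sample came near the untreated range. The mean rose from 4.06 ± 1.48 to 62.7 ± 12.0 (SD, n = 3), a ratio of 15.4, with a log2 difference of 3.68 (standard error 0.34, 95% interval 2.84 to 4.52, adjusted p = 0.014). Its place among the protein-coding genes moved from between 2288 and 3167 to between 362 and 453. *Casp4* was called in all 6 fits without 1 sample (adjusted p from 0.022 to 0.13). *Casp12*, another caspase gene of this kind, was listed at 0 in untreated cells and at 0.028 at most after LPS.

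**Figure D2:**
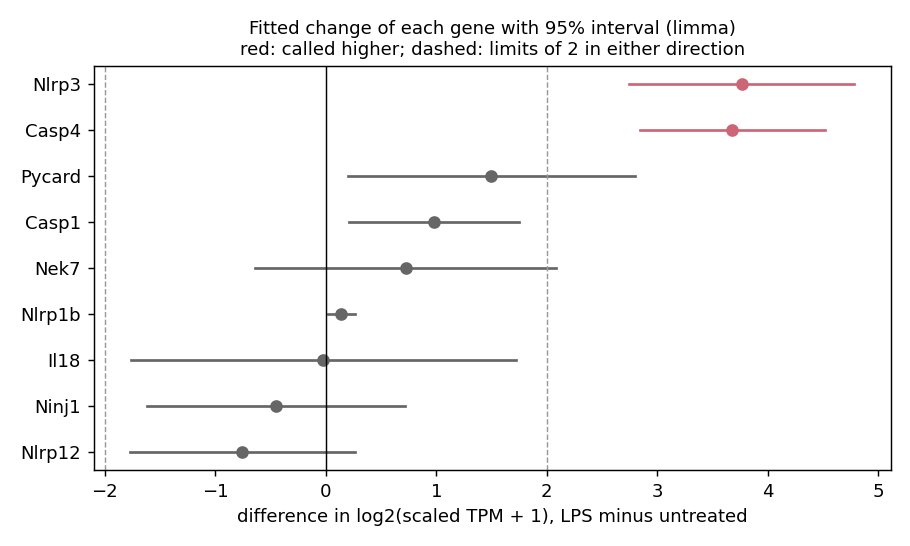
Fitted difference of each gene between LPS and untreated samples on the log2(scaled TPM + 1) scale (horizontal axis), with its 95% interval from limma and dashed lines at the limits of 2 in either direction. Nlrp3 at 3.76 and Casp4 at 3.68, in red, were called higher, and the intervals of Nek7, Il18, Ninj1 and Nlrp12 include 0.

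A ratio of a pair of genes within a sample does not depend on how that sample was scaled. The *Casp4* to *Casp1* ratio was 0.701, 0.205 and 0.525 in untreated cells and 2.59, 4.29 and 3.09 after LPS, so the highest untreated ratio was well under the lowest LPS ratio. The log2 ratio was higher by 2.94 (exact two-sided permutation test, p = 0.1). The *Nlrp3* to *Pycard* ratio, of the sensor to its adaptor, was 4.67, 9.73 and 1.67 without LPS and 25.1, 14.9 and 16.3 with it, a log2 difference of 2.11 (exact permutation test, p = 0.1). The *Nlrp3* to *Nlrp12* ratio was 9.08, 17.0 and 7.46 without LPS and 849, 131 and 826 with it, a log2 difference of 5.43 (exact permutation test, p = 0.1). In each of these 3 ratios all LPS samples were above all untreated ones. The numerators are *Nlrp3* and *Casp4*, the genes called higher, so this separation adds little to their calls. Other pairs of genes were not compared. In LPS replicates 1 and 3 the *Nlrp3* to *Nlrp12* ratio rests on *Nlrp12* values of 0.385 and 0.367. With 3 samples against 3, 0.1 is the smallest p the test can give, and adjustment over the 3 ratios leaves it at 0.1.

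**Figure D3:**
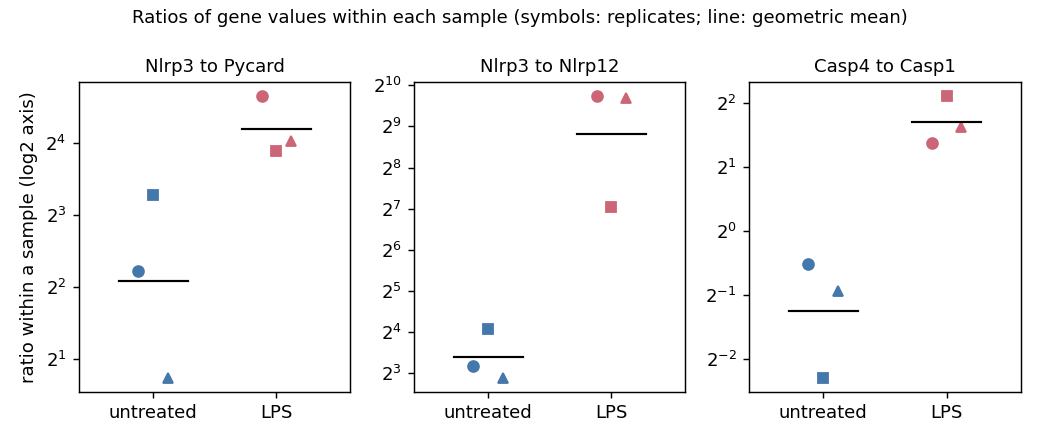
Ratios of the values of a pair of genes within each sample (vertical axis, log2 scale) for untreated and LPS samples, with symbols for replicates and a line at the geometric mean. The LPS samples lie above the untreated samples in all 3 panels, as for Casp4 to Casp1 with 2.59 to 4.29 against 0.205 to 0.701.

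Neither the cytokine gene nor the rupture gene was called. *Il18*, on chromosome 9 (50466081 to 50493633, plus strand), encodes a precursor that caspase-1 matures. It was listed at 0.282, 6.64 and 2.32 scaled TPM without LPS and at 3.09, 0.966 and 2.88 with it. The untreated samples spanned the LPS samples at both ends. The log2 difference was -0.02 with a 95% interval of -1.77 to 1.73 (adjusted p = 0.99), an interval that includes changes of either sign. Its transcripts share a stretch of 151 to 176 bases, at 95% identity or more, with 52 other genes, and *Bco2* and *Tex12* overlap it on the other strand, so its values are uncertain. *Ninj1*, on chromosome 13 (49340945 to 49349743, plus strand), encodes the protein that breaks the plasma membrane in the last step of lytic death. Its values were 369, 113 and 239 in untreated cells and 137, 183 and 156 after LPS. The untreated samples lay on both sides of the LPS samples, which were closer together. The mean was 240.3 ± 128 without and 158 ± 23.5 with LPS (SD, n = 3), with a log2 difference of -0.45 (standard error 0.48, 95% interval -1.62 to 0.72, adjusted p = 0.62). It ran from -0.06 without untreated replicate 1 to -0.91 without untreated replicate 2 (adjusted p = 0.94 and 0.21), and was -0.95 with values scaled to the sum of protein-coding genes. Its place among the protein-coding genes ran from 56 to 209 when untreated and from 174 to 213 after LPS.

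**Figure D4:**
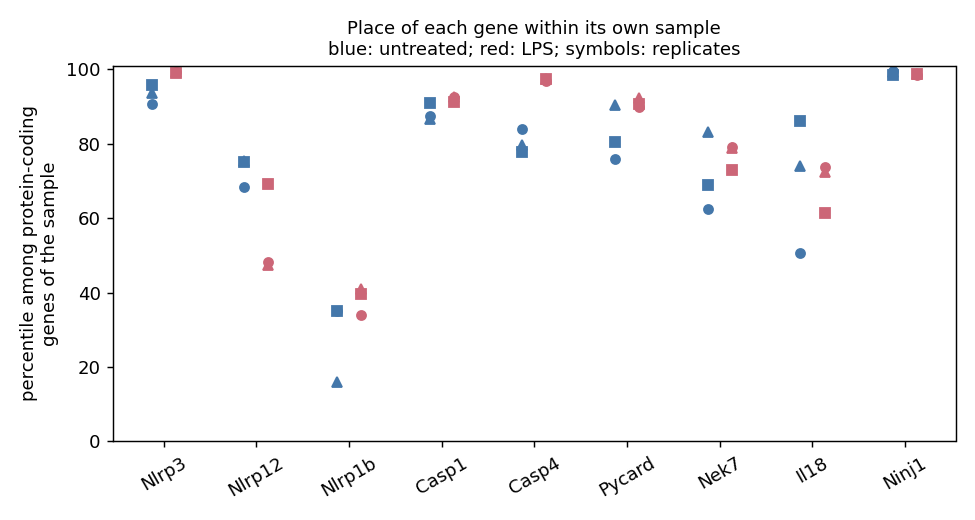
Percentile of each gene among the 14312 protein-coding genes of the table, ranked within each sample (vertical axis, 100 is the highest), for untreated (blue) and LPS (red) samples. Nlrp3 lies between 90.7 and 95.7 without and 99.0 and 99.4 with LPS, Casp4 between 77.9 and 84.0 without and 96.8 and 97.5 with LPS, and the groups overlap for Pycard, Nek7, Il18, Ninj1, Nlrp12 and Nlrp1b.

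Other genes of the pathway were taken from 7 lists with 108 genes, 78 of them present in the table and 75 with a value above 0. Of the 75, 5 were called higher and 0 lower (limma, with 21 higher and 2 lower at an unadjusted p under 0.05, and 7 and 0 called with voom), and their median log2 difference was 0.23. Over all genes tested, limma called 1.69% higher and 1.31% lower. The counts at an unadjusted p under 0.05 have no such share beside them. The 5 related genes called higher were *Ripk2*, *Nfkb1*, *Il18bp*, *Il1a* and *Il1b*. Without untreated replicate 3 the count fell to 3. *Ripk2*, *Nfkb1* and *Il18bp* were called in all 6 fits that left out 1 sample, *Il1a* was not called in 3 of them (without untreated replicate 3, LPS replicate 1 or LPS replicate 2) and *Il1b* not in 4 (without untreated replicate 1 or 3, or LPS replicate 2 or 3). *Il1b* was also not called with values scaled to the sum of protein-coding genes, which left 4. *Gsdmd*, the gene of gasdermin D, and *Nlrc4* were not analysed here.

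Among 6 other inflammasome sensors, 0 were called in either direction (1 higher and 0 lower at an unadjusted p under 0.05), and the median difference was 0.03. *Nlrp2* had a difference of -0.06 at values of at most 0.0629 scaled TPM. *Aim2*, the sensor of cytosolic DNA that uses the same adaptor, was listed at 13.2, 25.2 and 53.7 in untreated cells and at 13.1, 9.71 and 9.31 scaled TPM after LPS. Each LPS sample was below each untreated sample, the first only just, and the log2 difference of -1.23 was not called (standard error 0.53, adjusted p = 0.32).

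Of 5 other genes around the NOD-like receptors, *Ripk2*, the kinase that carries the signal of NOD1 and NOD2, was called higher. Its values were 1.64, 6.70 and 1.17 scaled TPM without LPS and 54.5, 67.4 and 53.1 with it, a log2 difference of 4.06 (standard error 0.53, adjusted p = 0.029). The receptors themselves, *Nod1* and *Nod2*, named after their values were seen, also had separate groups, but with log2 differences of 1.75 and 1.42 they were not called (adjusted p = 0.18 and 0.16). The median of the list was 1.42.

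Among the 13 genes of the list for priming and licensing of NLRP3, 1 was called higher and 0 lower (4 higher and 1 lower at an unadjusted p under 0.05), with a median of 0.26. The list holds genes with different roles, so its median is not a measure of priming. *Nfkb1*, a subunit of NF-κB, rose by 2.50 on the log2 scale (standard error 0.29, adjusted p = 0.022). *Pstpip1*, whose product binds the inflammasome protein pyrin, was listed at 16.1, 12.3 and 12.5 scaled TPM without LPS and at 4.14, 8.36 and 4.38 with it, and was not called (log2 difference -1.19, standard error 0.35, adjusted p = 0.16). *Tlr4*, the receptor of extracellular LPS, had a log2 difference of -0.48 (standard error 0.54, adjusted p = 0.64).

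The list of GTPases and factors tied to sensing of cytosolic LPS held 15 tested genes, of which 0 were called (4 higher and 0 lower at an unadjusted p under 0.05, and 1 higher with voom), with a median of 0.43. Its largest difference was in *Gbp2*, a guanylate-binding protein gene named after its values were seen. It was listed at 21.1, 28.1 and 2.73 scaled TPM in untreated cells and at 136, 54.8 and 181 after LPS, and its log2 difference of 3.06 had a standard error of 0.89 (adjusted p = 0.15). The largest differences in the other direction, in *Gbp8* and *Gbp10*, were both -0.28. Of 12 tested genes for gasdermins, other proteases and necroptosis, 0 were called (1 higher and 0 lower at an unadjusted p under 0.05), and the median was -0.03. *Ripk1* and *Zbp1* had the largest positive differences, 1.30 and 0.76, and *Gsdme*, named after its values were seen, was listed at 4.50 to 6.43 scaled TPM without and at 4.67 to 11.3 with LPS.

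The list of interleukin-1 and interleukin-18 output held 11 genes, 3 of them called higher, with a median of -0.04. *Il18bp* encodes a secreted protein that binds IL-18 and blocks it. Its values were 1.51, 4.07 and 2.28 scaled TPM in untreated cells and 27.0, 22.8 and 29.9 after LPS. It rose by 2.98 on the log2 scale (standard error 0.36, adjusted p = 0.023). *Il1b*, the gene of the cytokine that caspase-1 matures, was listed at 178, 478 and 397 without and at 972, 2353 and 1504 with LPS, a log2 difference of 2.22 (standard error 0.52, adjusted p = 0.097). *Il1a* had a log2 difference of 5.23 (standard error 1.06, adjusted p = 0.072). The receptor genes *Il18r1* and *Il18rap*, named after their values were seen, had differences of -0.36 and -0.39 (adjusted p = 0.79 and 0.70).

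In the list for repair and rupture of the membrane, 0 of 13 tested genes were called (4 higher and 1 lower at an unadjusted p under 0.05, 0 and 0 with voom), and the median was 0.46. *Pdcd6*, whose product brings the ESCRT repair machinery to damaged membrane, was listed at 22.6, 25.2 and 21.6 scaled TPM without LPS and at 6.08, 5.47 and 6.44 with it. Its log2 difference of -1.78 had an adjusted p of 0.038 but did not reach the fold limit, and it was called lower when values were scaled to the sum of protein-coding genes. *Pdcd6ip*, the gene of its partner ALIX, had a log2 difference of -0.89 (adjusted p = 0.50). *Chmp4b*, an ESCRT-III subunit named after its values were seen, was listed at 63.4 to 112 without and at 146 to 237 with LPS (log2 difference 1.02, adjusted p = 0.21). *Ninj2*, the paralogue of *Ninj1*, was listed at 0 in all samples.

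**Figure D5:**
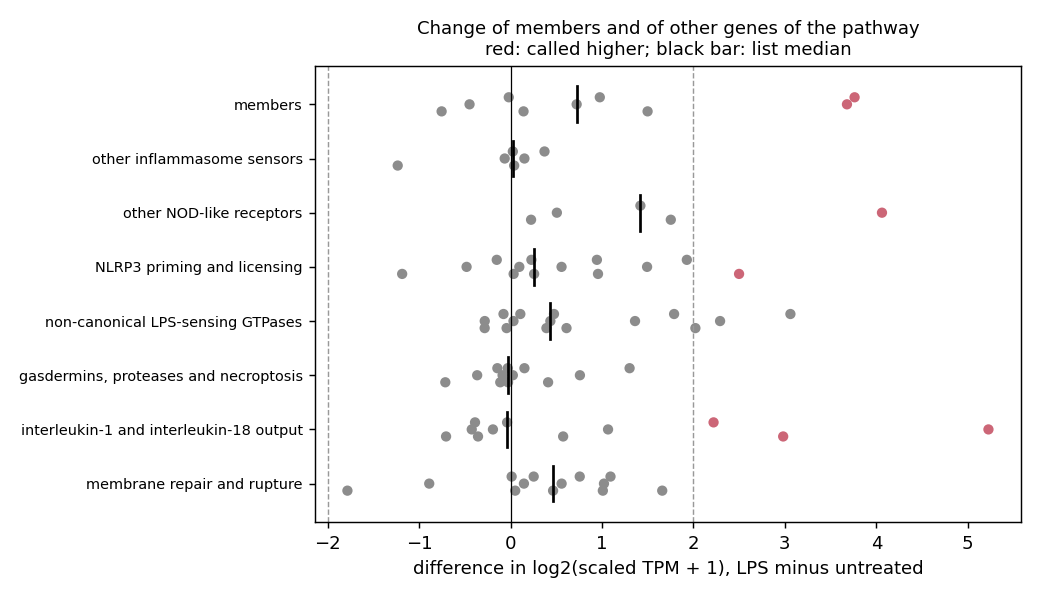
Fitted differences between LPS and untreated samples on the log2(scaled TPM + 1) scale (horizontal axis) for the 9 genes (top row) and for the tested genes of the 7 lists, 1 point per gene, with called genes in red, list medians as black bars and dashed lines at 2 in either direction. The called genes are Nlrp3 and Casp4 in the top row and Ripk2, Nfkb1, Il18bp, Il1a and Il1b below it.

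Genes with a similar pattern were sought by the root mean square difference, over the 6 samples, of log2(scaled TPM + 1) values centred on the mean of each gene, among 4233 genes with a mean of at least 5 scaled TPM. For *Nlrp3* these were *Psma5* (0.30), *Eif4g2* (0.30) and *Traf1* (0.32), for *Casp4* they were *Zfp703* (0.27), *Adora2a* (0.31) and *Mgst1* (0.31), and for *Pycard* they were *Trim12a* (0.11), *Dazap1* (0.20) and *Pde4b* (0.22). For *Casp1* they were *Plaa* (0.11), *Btg1* (0.14) and *Ldha* (0.15). The values for genes with large and small differences are not on one footing, since a larger change leaves more room for the distance. For the genes that were not called and whose groups overlapped, the nearest were *Mapk3* for *Nlrp12* (0.13), *Atp5g3* for *Nek7* (0.18), *Nasp* for *Il18* (0.24) and *Gmeb2* for *Ninj1* (0.13). For *Nlrp1b* the nearest was *Gm47164* (0.10), which varied as little.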

How the data were processed

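RNA sequencing values of 3 untreated and 3 LPS samples were analysed, grouped by their titles. The authors used STAR for alignment to GRCm39, kallisto for transcript abundance and edgeR for normalization, and the processing notes also name fastp and mm10. Annotation release and versions are not given in the sources used here. From their range and steps, the values the authors deposited were read as TPM, rescaled per sample and given as the mean of the transcripts of each gene. Reads cannot be recovered, so the precision rests on the 3 samples per group, and tests on counts were not run.

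Genes above 0 in at least 1 sample were tested with limma 3.58.1 in R 4.3.3 (eBayes with trend, two-sided) on log2(TPM + 1), without covariates, with Benjamini-Hochberg adjustment over all 23049. The calling limits are those of the study. Ratios within samples were tested with exact permutation tests (scipy 1.17.1). Positions and gene types are from GENCODE M39 (GRCm39), and 2157 genes had no type. Near-identical stretches (95% identity, 150 bases or more) were found with blastn 2.17.0. The fit was tested on simulated data that were given a smaller spread between samples than the real values. That test therefore does not show how the fit performs at the spread seen here. The genes, lists and tests were chosen with earlier results of these data known. Named genes are the 9 genes, up to 4 called genes per list, the 2 largest differences against the sign of the median of the list and the 3 most similar genes. Alternatives were pseudocounts, filters, scalings, eBayes without trend, voom on the deposited values, a replicate block, an adjusted p and leaving out samples, and scaling to protein-coding genes was added after seeing the data.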

Additional observations from a re-analysis of the deposited data

How the results depend on the processing

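*Nlrp3* and *Casp4* were called higher under all 17 alternatives, with log2 differences of 3.28 to 4.12 and 2.90 to 3.96 and adjusted p values of 0.0067 to 0.15 and 0.0047 to 0.13. Between 2 and 3 of the 9 genes were called higher as each sample was left out, the third being *Pycard* without untreated replicate 3, and 0 were called lower under any alternative. The related genes called higher numbered 3 to 7 as each sample was left out, and 3 with 1 lower when an adjusted p under 0.05 replaced both limits. With values scaled to the sum of protein-coding genes, chosen after seeing the data, 1 related gene was called lower, *Pdcd6* in both cases. *Il18* had no stable sign, with differences of 0.23 at a pseudocount of 0.1, 0.059 with voom, 0.61 without untreated replicate 2, 0.01 without untreated replicate 3 and 0.32 without LPS replicate 2, and *Nlrp1b* was at -0.061 with median centring, and as each sample was left out *Il18* ran from -0.68 to 0.61. The cause was not tested. *Nlrp1b* has no value with a filter on a mean of at least 1.

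Over all genes tested, 389 were called higher and 301 lower, against 856 and 493 at a pseudocount of 0.1, 129 and 168 at 5, 586 and 386 with voom, 310 and 414 with median centring, 220 and 522 with scaling to protein-coding genes and 206 and 218 at an adjusted p under 0.05. That last count was 1 and 10 without LPS replicate 1, 6 and 22 without LPS replicate 2, 3 and 19 without LPS replicate 3, 67 and 78 without untreated replicate 3 and 1 and 15 with the replicate block. The median difference of all genes tested was 0.01 as deposited and -0.19 with median centring, and that of genes with a mean of at least 1 went from 0.13 to -0.22 with scaling to protein-coding genes. The log2 ratios within samples differed by 2.42 to 3.31 (*Casp4* to *Casp1*), 1.44 to 2.71 (*Nlrp3* to *Pycard*) and 4.98 to 6.32 (*Nlrp3* to *Nlrp12*) as each sample was left out. The replicate numbers are not stated to pair samples, and same-numbered samples deviated together with correlations of 0.094, 0.20 and 0.083, each sample correlating best with its own number. With the replicate block, 2 of the 9 genes and 6 related genes were called higher and 0 lower, with adjusted p values of 0.089 for *Nlrp3* and 0.084 for *Casp4*. The depth of the samples is unknown, and the spread between 3 samples limits what could be detected.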
